A study of Prunus avium with 21 samples.

Results

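The transcripts described here are the isoforms of 1 assembled gene of sweet cherry flower buds, TR9690|c0_g1, whose best protein matches are the non-symbiotic hemoglobin of *Prunus mume* and hemoglobin 1 of *Arabidopsis*. They were found by their identifier, as isoforms 1, 2 and 3 (TR9690|c0_g1_i1, TR9690|c0_g1_i2 and TR9690|c0_g1_i3), and make up 3 of 112043 transcripts and 1 of 48840 assembled genes. The gene was chosen by its own FPKM in all 7 groups, high for a time after treatment against the course in water. Its levels and differences are therefore given as a description, without a test. No sequence of this hemoglobin was used here.

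Flower buds of the cultivar ‘Burlat’ were taken from branches of 3 neighbouring trees, numbered 4, 5 and 6, and the messenger RNA of each pool of buds was sequenced. The groups were buds sprayed with 2% Dormex, whose active compound is hydrogen cyanamide, 1, 3, and 6 days after treatment (dat), buds sprayed with deionized water on the same days (controls), and untreated buds at day 0, with 3 libraries in each of the 7 groups. Hydrogen cyanamide is applied to fruit trees to break bud dormancy. Treated and control branches stood under constant light in a warm chamber, in which day 0 buds had not been. Day 0 buds were also collected in the evening and all others in the morning. Day 0 thus differs from both in more than the number of days.

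Plant hemoglobins of the non-symbiotic kind, also called phytoglobins, are small heme proteins of nearly all plant tissues, separate from the leghemoglobins that carry oxygen in root nodules. With oxygen bound they react with nitric oxide and turn it into nitrate, and they are best known from tissues short of oxygen, where nitrate reductase supplies nitrite that can be reduced to nitric oxide. In *Arabidopsis* the transcript of hemoglobin 1 responds to nitrate and to low oxygen.

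Isoform 2 carried almost all of the hemoglobin signal and was far higher in treated buds than in controls at 1 dat. Values are FPKM, fragments scaled to the length of the transcript and to the size of the library, as deposited. They are given for trees 4, 5 and 6 in this order. At 1 dat isoform 2 had 1790, 1749 and 2186 FPKM in treated buds, against 195, 89.0 and 103 FPKM in controls, and the lowest treated library was far above the highest control library. At 3 dat it had 459, 865 and 360 FPKM in treated buds, against 67.2, 84.5 and 65.9 FPKM in controls. At 6 dat it had 442, 348 and 318 FPKM in treated buds, against 220, 217 and 151 FPKM in controls. The groups did not overlap on any of the 3 days, and the untreated buds at day 0, with 77.8, 131 and 99.8 FPKM, lay within the range of the control buds.

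**Figure D1:**
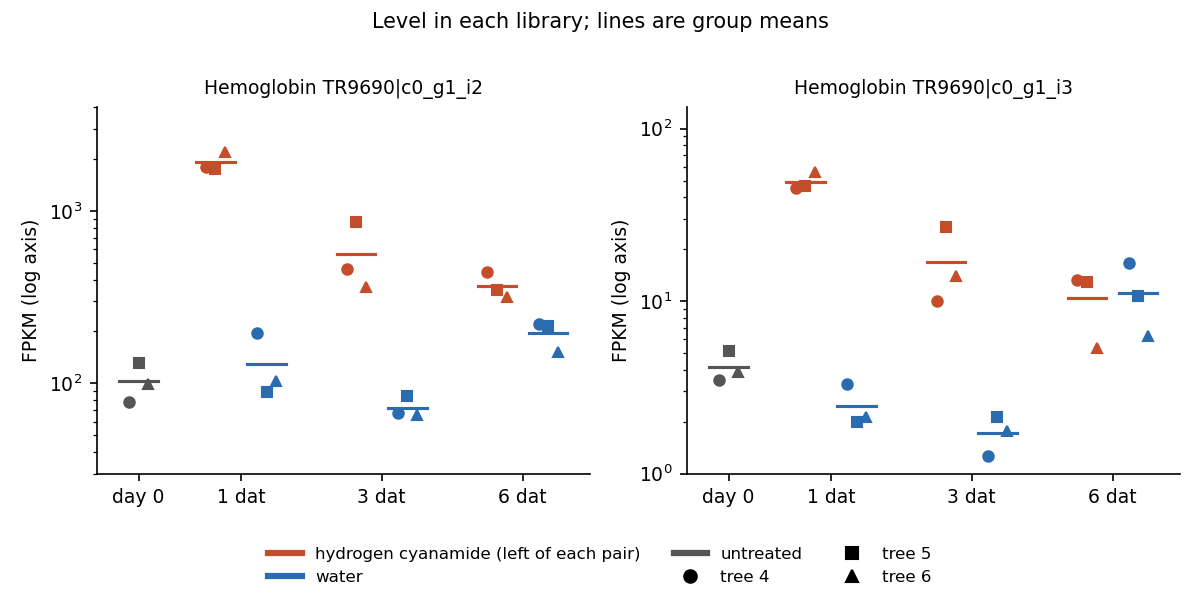
Level of the hemoglobin isoforms TR9690|c0_g1_i2 (left) and TR9690|c0_g1_i3 (right) in each of the 21 libraries, in FPKM on a log axis, by group. Points are single trees and lines are means of 3 trees. Treated buds at 1 dat stand above all other groups in both panels, with means of 1908 FPKM for isoform 2 and 49.1 FPKM for isoform 3.

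Among all transcripts of a library, isoform 2 was one of the most abundant at 1 dat. In treated buds it ranked 8th or 9th by FPKM and held 0.250 to 0.309% of the summed FPKM of the library, against ranks of 389 to 1047 in controls. In treated buds its rank was 23 to 176 at 3 dat and 124 to 261 at 6 dat, against 1191 to 1594 and 354 to 631 in controls on these days. At day 0 it ranked 678 to 1236. Since whole buds were sequenced, fewer cells of a type and less RNA per cell cannot be told apart, and the same holds for a higher level.

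Ordered by the mean of isoform 2, the treated groups came first, at 1908 ± 241 FPKM at 1 dat, 561 ± 267 at 3 dat and 369 ± 65.0 at 6 dat, followed by controls at 6 dat (196 ± 38.5), controls at 1 dat (129 ± 57.6), day 0 (103 ± 26.9) and controls at 3 dat (72.5 ± 10.4; SD, n = 3 each). Of the neighbours in this order, treated buds at 1 and 3 dat did not overlap, with means 3.4 times apart, nor did treated and control buds at 6 dat, 1.89 times apart. The other 4 pairs of neighbours overlapped, so that controls at 1 dat, day 0 and controls at 3 dat were not separated step by step.

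The treated to control difference was largest at 1 dat and smallest at 6 dat. The ratio of treated to control means for isoform 2 was 14.8 at 1 dat, 7.74 at 3 dat and 1.89 at 6 dat. Within single trees it was 9.18, 19.7 and 21.2 at 1 dat and 6.83, 10.2 and 5.47 at 3 dat. At 6 dat it was 2.01, 1.61 and 2.10. Treated buds were higher in 9 of 9 pairs of libraries, which follows from groups that did not overlap. The trees overlapped between 1 and 3 dat, and all 3 ratios at 6 dat lay under those of both earlier days. Tree 4 had the smallest ratio at 1 dat, where its control library was the highest of the 3. The log2 fold change (FC) on the log2(FPKM + 0.5) scale, which understates the change of low transcripts, was 3.96 (SE 0.27) at 1 dat, 2.85 (SE 0.29) at 3 dat and 0.92 (SE 0.18) at 6 dat. With trees 5 and 6 alone at 1 dat it was 4.34.

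**Figure D2:**
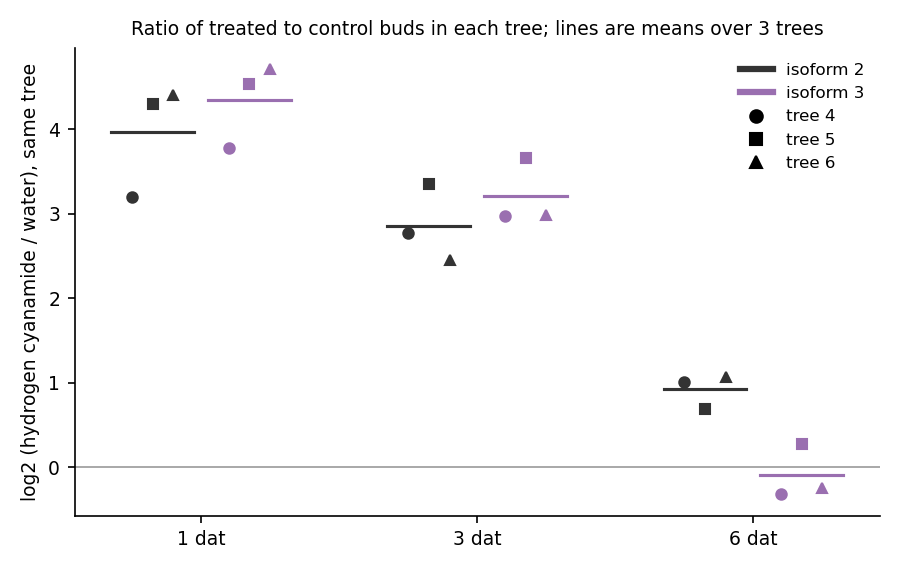
Ratio of treated to control level of the hemoglobin in the same tree, on the log2 scale, for isoform 2 (dark) and isoform 3 (purple) at 1, 3, and 6 dat. Points are single trees and lines are means of 3 trees. Ratios of isoform 2 are 9.18 to 21.2 at 1 dat and 1.61 to 2.10 at 6 dat, and those of isoform 3 lie on both sides of 0 (equal levels) at 6 dat.

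Isoform 3, the isoform by which the gene was picked, ran at a few percent of isoform 2 but with the same early peak. At 1 dat it had 45.1, 46.2 and 56.1 FPKM in treated buds, against 3.30, 1.99 and 2.14 FPKM in controls, a ratio of means of 19.8. At 3 dat it had 10.01, 26.9 and 14.0 FPKM in treated buds, against 1.27, 2.12 and 1.76 FPKM in controls, a ratio of 9.86. The groups did not overlap on these days, and tree 5 was the highest treated library at 3 dat for isoforms 2 and 3 alike. At 6 dat isoform 3 had 13.3, 12.9 and 5.33 FPKM in treated buds, against 16.6, 10.7 and 6.32 FPKM in controls, and the groups overlapped. The log2 FC was 4.08 (SE 0.19), 2.88 (SE 0.36) and -0.09 (SE 0.43) at 1, 3, and 6 dat, and the sign of the last is not settled, since it was 0.06 after rescaling and ran over -0.43 to 0.31 when single libraries were left out. Ordered by mean, isoform 3 was highest in treated buds at 1 dat, followed by treated buds at 3 dat, controls at 6 dat, treated buds at 6 dat, day 0 and controls at 1 and 3 dat, and treated buds at 3 dat, controls at 6 dat and treated buds at 6 dat overlapped in turn.

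Isoform 1 was at most 1.29 FPKM in any library. It passed the minimum mean of 0.5 FPKM only where treated buds were set against day 0, with log2 differences of 0.06, 0.12 and 0.18 at 1, 3, and 6 dat and SEs of 0.58 to 0.62. Isoform 2 made up 93.0 to 98.3% of the sum of the 3 isoforms in every library, so the sum followed it closely, with means of 1958, 579 and 381 FPKM in treated buds at 1, 3, and 6 dat, 132, 74.4 and 207 FPKM in controls, and 108 FPKM at day 0.

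Treated and control buds differed more in the balance of the isoforms at 6 dat than at 1 and 3 dat. Since isoform 3 served to choose the gene, its share is a description, without a test. Isoform 3 averaged 2.58, 3.06 and 2.79% of isoform 2 in treated buds at 1, 3, and 6 dat, against 2.00, 2.36 and 5.55% in controls and 4.10% at day 0. Over the 3 days the log2 ratio of isoform 3 to isoform 2 differed by -0.29 between treated and control buds. At 6 dat alone the log2 ratio was -5.77 to -4.71 in treated buds and -4.48 to -3.69 in controls, a difference of -1.01 in which the groups did not overlap. At 1 and 3 dat the differences were 0.12 and 0.03, and the groups overlapped on this scale. Without a pseudocount, isoform 3 at 1 dat was 2.52 to 2.64% of isoform 2 in treated buds and 1.69 to 2.23% in controls. There the groups did not overlap, in the direction opposite to 6 dat. The difference over the 3 days was -0.14 with a pseudocount of 0.1 FPKM and -0.44 with 1 FPKM. Its size thus depends on how low values of isoform 3 are treated. Reads that isoforms share were divided between them by estimation, so isoform values are less certain than their sum.

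**Figure D3:**
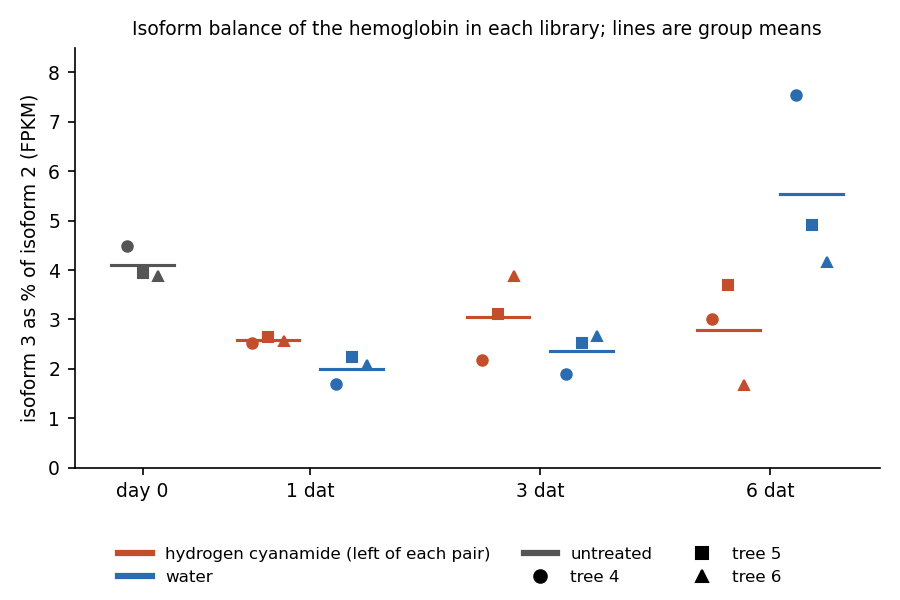
Isoform 3 as percent of isoform 2 of the hemoglobin in each library (FPKM over FPKM), by group. Points are single trees and lines are means of 3 trees. At 6 dat the 3 treated libraries lie at 1.68 to 3.69% and the 3 control libraries at 4.17 to 7.55%. At 1 dat they lie at 2.52 to 2.64% and at 1.69 to 2.23%.

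Against day 0, treated buds were high on all days and control buds only on the last. For isoform 2 the means of treated buds were 18.5, 5.45 and 3.59 times that of day 0 at 1, 3, and 6 dat, with log2 differences of 4.23 (SE 0.18), 2.37 (SE 0.33) and 1.86 (SE 0.20). The means of control buds were 1.25, 0.704 and 1.90 times that of day 0, with log2 differences of 0.27 (SE 0.31), -0.48 (SE 0.20) and 0.94 (SE 0.22). The first of these had no settled sign, being -0.26 with trees 5 and 6 alone and -0.07 without the control library of tree 4. All 6 comparisons share the day 0 libraries and so are not independent of each other.

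In water, the hemoglobin was lowest at 3 dat and higher again at 6 dat. The mean of isoform 2 in controls at 6 dat was 2.70 times that at 3 dat, and the ranges did not overlap. For isoform 3 this ratio was 6.51, again without overlap, and isoform 3 in controls was 0.593, 0.411 and 2.68 times day 0 at 1, 3, and 6 dat. In treated buds isoform 3 was 11.8, 4.06 and 2.51 times day 0. At 6 dat treated and control buds were thus both above day 0 for isoform 3, with log2 differences of 1.15 (SE 0.36) and 1.24 (SE 0.34).

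The libraries were even enough for these comparisons, with FPKM totals of 671152 to 760090 and a relative depth, read from the steps between low values, that differed by a factor of at most 1.30. The closest library by correlation was one of the same group in 21 of 21 cases. Markers of flower organs, 7 transcripts of *SEPALLATA 1*-like and *DEFICIENS*-like genes that are all above 0, summed to 4.84 to 6.61 FPKM in treated buds at 1 dat, against 1.67 to 2.17 FPKM in controls. At 3 dat the sum was 2.70 to 5.46 FPKM in treated buds, against 1.90 to 2.70 FPKM in controls, and at 6 dat 4.99 to 8.26 FPKM, against 5.24 to 9.50 FPKM in controls. The 13 anther transcripts, all above 0, summed to 20.7 to 102 FPKM in treated buds at 6 dat (median 25.6). In controls the sum was 9.25 to 24.3 FPKM (median 9.35), and the groups overlapped. At 3 dat they did not overlap, with 13.2 to 17.1 FPKM in treated buds, against 9.27 to 10.5 FPKM in controls. At 1 dat treated buds were the lower, with 8.86 to 9.54 FPKM, against 10.03 to 10.9 FPKM in controls, again without overlap. A single transcript, TAPETUM 1 TR15781|c0_g1_i1, reached 95.5 FPKM in the highest library. The 6 transcripts of a chlorophyll a-b binding protein summed to 362 to 407 FPKM in treated buds at 1 dat. Their sum was 516 to 636 FPKM in controls at 1 dat and 809 to 866 FPKM at day 0. At 3 dat it was 229 to 298 FPKM in treated buds, against 359 to 443 FPKM in controls. At 6 dat it was 340 to 388 FPKM in treated buds, against 317 to 386 FPKM in controls, and the groups overlapped. The part of all these markers in the hemoglobin levels was not tested.

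To place the hemoglobin among the processes it is known from, 4 lists of transcripts were compared between treated and control buds with limma, in a fit of all transcripts that averaged 0.5 FPKM or more. A transcript is said to have risen or fallen, and counts as called, if its Benjamini-Hochberg adjusted p did not exceed 0.05 and its log2 FC reached 1 in either direction. The lists hold 123 transcripts named for nitrate use, low oxygen, cyanide, and ascorbate and glutathione. These are isoforms of 5, 12, 4 and 2 assembled genes in this order. Isoforms of 1 gene can share reads, so the members of a list are not independent of each other. The lists were drawn from transcript descriptions in supplementary tables, which hold transcripts called on the same samples. A count over a list therefore does not stand as independent evidence. At 1 dat 23 of 81 members tested had risen, where 2.93% of all 61644 transcripts tested had, and 0 had fallen, where 1.01% had (5 were lower at an unadjusted p under 0.05 in limma). The median log2 FC was 0.71 over the members and -0.10 over all transcripts tested. With the tree as a block, 18 of the 23 remained called. With isoforms summed per assembled gene 13 were called, all of them higher. The share over all summed genes was not taken, and the 2.93% above does not apply to that fit.

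The nitrate list had a median log2 FC of 1.90 at 1 dat. Of its members tested, 6 of 8 had risen, where 2.93% of all transcripts had. Nitrate reductase, which reduces nitrate to nitrite and can itself form nitric oxide, was among them with both of its assembled genes. The nitrate reductase TR8065|c0_g2_i1 had 67.5, 74.3 and 72.1 FPKM in treated buds, against 13.7, 7.39 and 11.1 FPKM in controls and 8.22, 9.70 and 9.09 FPKM at day 0. Treated buds lay far above both other groups, which overlapped (treated against control log2 FC 2.72, SE 0.20, adjusted p = 0.000324). The nitrate reductase TR8065|c0_g1_i1 averaged 44.5 ± 2.93 FPKM in treated buds and 7.36 ± 2.30 FPKM in controls (SD, n = 3 each; log2 FC 2.56, adjusted p = 0.000450 in limma). Nitrite reductase, which carries nitrite on to ammonium in plastids (TR10483|c0_g1_i1), had 44.9, 52.3 and 49.8 FPKM in treated buds, against 21.1, 11.02 and 11.2 FPKM in controls (log2 FC 1.79, SE 0.24, adjusted p = 0.00500). The nitrate transporter 1.5 TR12690|c5_g1_i4, which in *Arabidopsis* loads nitrate into the xylem, had 7.40, 8.68 and 6.91 FPKM in treated buds, against 2.503, 2.13 and 2.91 FPKM in controls (log2 FC 1.44, adjusted p = 0.00500). The high affinity nitrate transporter TR38534|c3_g4_i1, which takes up nitrate where it is scarce, had 17.9, 13.9 and 15.4 FPKM in treated buds, against 22.2, 25.0 and 24.7 FPKM in controls, and was under the fold threshold (log2 FC -0.60, adjusted p = 0.0294).

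At 3 dat 3 of 9 nitrate list members had risen, where 1.96% of all transcripts had, and 1 had fallen, where 1.05% had. The nitrate reductase TR8065|c0_g2_i1 had 25.0, 34.8 and 23.7 FPKM in treated buds, against 7.58, 11.9 and 7.74 FPKM in controls (log2 FC 1.57, SE 0.23, adjusted p = 0.0157). Its call was lost without treated tree 4, control tree 4 or control tree 6 (adjusted p = 0.0562, 0.0595 and 0.0692), while that of TR8065|c0_g1_i1 (log2 FC 1.58, adjusted p = 0.00908) held without any 1 of the 6 libraries. Nitrite reductase had 8.78, 8.55 and 8.67 FPKM in treated buds, against 4.26, 8.33 and 5.72 FPKM in controls (log2 FC 0.52, adjusted p = 0.292). The high affinity nitrate transporter TR38534|c3_g4_i1 had fallen, with 7.06, 2.38 and 4.92 FPKM in treated buds, against 23.7, 19.1 and 23.3 FPKM in controls (log2 FC -2.19, adjusted p = 0.0181, and 0.0712 and 0.0802 without control trees 4 and 6).

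At 6 dat nitrate reductase no longer differed beyond the spread of the libraries. TR8065|c0_g2_i1 had 31.1, 22.4 and 21.3 FPKM in treated buds, against 23.8, 24.5 and 14.2 FPKM in controls, and the groups overlapped (log2 FC 0.27, adjusted p = 0.636). Nitrite reductase TR10483|c0_g1_i1 was not called but averaged 4.64 FPKM in treated buds and 1.96 FPKM in controls, 2.37 times apart and without overlap. Its log2 FC changed by -0.71 from 1 to 6 dat (SE 0.36, adjusted p = 0.413 in limma). The nitrate transporter 1.5 TR12690|c5_g1_i4 had risen (11.9 ± 4.51 FPKM in treated buds and 2.53 ± 0.378 FPKM in controls, SD, n = 3 each; log2 FC 1.97, adjusted p = 0.0332 in limma) and the high affinity transporter TR38534|c3_g4_i1 had fallen (0.837 ± 0.229 FPKM in treated buds and 5.00 ± 0.214 FPKM in controls, SD, n = 3 each; log2 FC -2.06, adjusted p = 0.0201 in limma). With the tree as a block their adjusted p was 0.0556 and 0.0678. Either call was also lost without any 1 of the libraries other than treated tree 6, at an adjusted p of 0.0920 to 0.131 for TR12690|c5_g1_i4 and of 0.0514 to 0.105 for TR38534|c3_g4_i1.

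**Figure D4:**
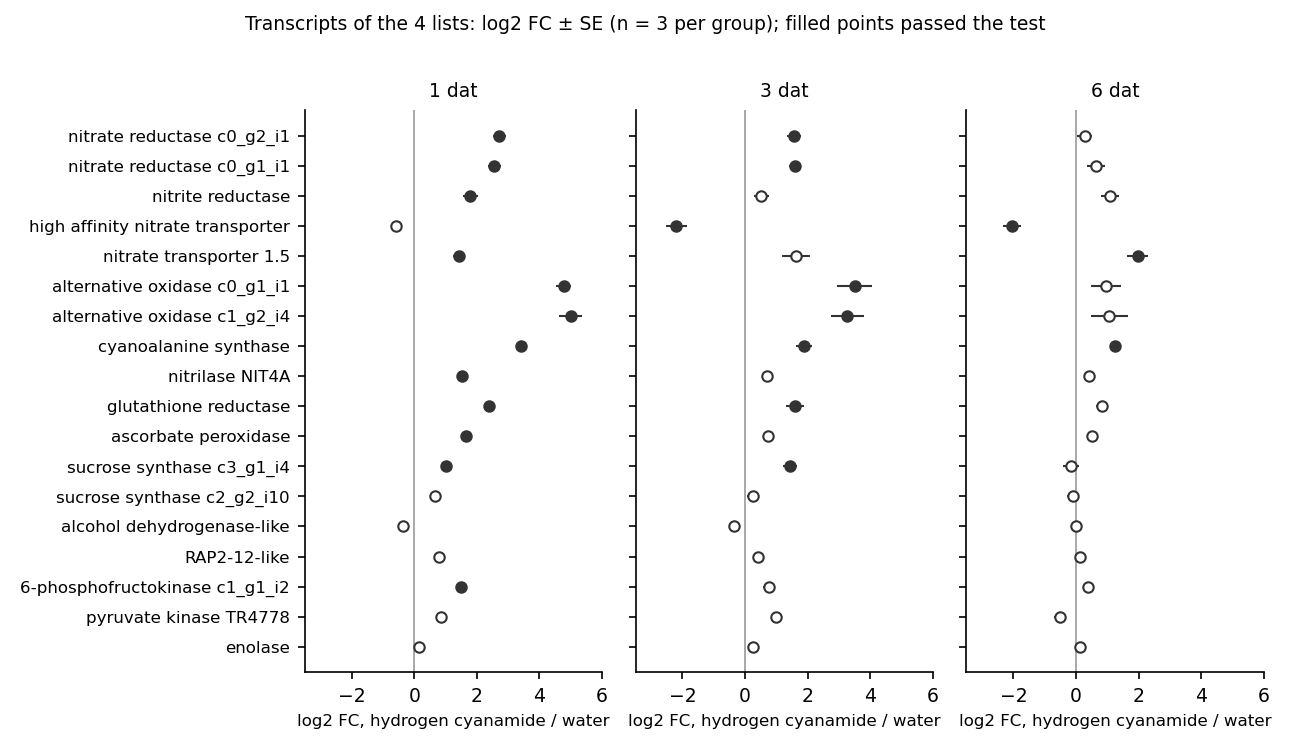
Treated against control log2 FC with its SE (n = 3 per group) for 18 transcripts of the 4 lists at 1, 3, and 6 dat, from limma. Filled points passed the test (adjusted p up to 0.05, log2 FC of 1 or more in either direction), and the 2 transporters filled at 6 dat do not pass it with the tree as a block. Nitrate reductase TR8065|c0_g2_i1 is at 2.72 at 1 dat and 0.27 at 6 dat, and cyanoalanine synthase is filled on all 3 days.

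At 1 dat 8 of 53 low oxygen members had risen, where 2.93% of all transcripts had, and 0 had fallen, where 1.01% had. At an unadjusted p under 0.05 in limma 20 were higher and 3 lower. The median log2 FC was 0.37. The member with the highest fold, a glutamate decarboxylase isoform (TR12634|c0_g1_i4; the enzyme makes the amino acid GABA), had 8.57, 12.2 and 15.3 FPKM in treated buds, against 0.973, 0.389 and 0.670 FPKM in controls (log2 FC 3.405, SE 0.30, adjusted p = 0.000693). The isoform of that gene with the highest mean, TR12634|c0_g1_i2, had a log2 FC of -1.16 (adjusted p = 0.103). Sucrose synthase TR35421|c3_g1_i4, which splits sucrose without ATP, averaged 48.6 ± 0.877 FPKM in treated buds and 24.0 ± 2.33 FPKM in controls (SD, n = 3 each; log2 FC 1.01, adjusted p = 0.000834 in limma), and its log2 FC lay under 1 without treated tree 4 (0.99), control tree 4 (0.99) or control tree 6 (0.95). A 6-phosphofructokinase of glycolysis, TR32350|c1_g1_i2, had 38.4, 37.2 and 34.1 FPKM in treated buds, against 15.6, 11.8 and 10.9 FPKM in controls (log2 FC 1.496, adjusted p = 0.00108).

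Several other members of the low oxygen list stayed under the fold threshold at 1 dat, some lower and some higher in treated buds. The alcohol dehydrogenase-like TR10654|c1_g1_i2 (fermentation to ethanol) had 69.5, 66.7 and 63.4 FPKM in treated buds, against 86.2, 80.9 and 89.0 FPKM in controls, and was thus the lower in treated buds (log2 FC -0.36, adjusted p = 0.0218). Against day 0 (137, 147 and 139 FPKM) it had fallen in treated buds at 1, 3, and 6 dat, with log2 FC of -1.08, -1.11 and -1.18. In controls its log2 FC against day 0 was -0.72, -0.75 and -1.16, of which the last passed the fold threshold. The RAP2-12-like transcript TR7764|c0_g1_i2, named for an ethylene response factor that activates low oxygen genes in *Arabidopsis*, averaged 384 ± 31.7 FPKM in treated buds and 222 ± 7.11 FPKM in controls (SD, n = 3 each; log2 FC 0.79, adjusted p = 0.000575 in limma). Enolase of glycolysis (TR12580|c2_g1_i7) had a log2 FC of 0.14 (adjusted p = 0.231) and the sucrose synthase TR12237|c2_g2_i10 one of 0.67 (adjusted p = 0.000497).

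At 3 dat 3 of 56 low oxygen members had risen, where 1.96% of all transcripts had, and 2 had fallen, where 1.05% had. At 6 dat 1 of 59 had fallen, where 0.495% of all transcripts had, and 0 had risen, where 0.913% had. Sucrose synthase TR35421|c3_g1_i4 had 105, 132 and 165 FPKM in treated buds at 3 dat, against 43.2, 65.5 and 40.6 FPKM in controls (log2 FC 1.43, adjusted p = 0.0186). It was not called without treated tree 5, control tree 4 or control tree 6 (adjusted p = 0.0650, 0.0720 and 0.0784). The sucrose synthase isoform TR35421|c3_g1_i3 had fallen at 6 dat, with 8.36, 6.66 and 4.80 FPKM in treated buds, against 24.7, 28.1 and 16.6 FPKM in controls (log2 FC -1.73, adjusted p = 0.0270, and 0.0549 to 0.127 without treated tree 5 or 6 or control tree 4 or 5). The median log2 FC of the list was 0.28 at 3 dat and -0.44 at 6 dat.

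The 2 highest log2 FC of the 4 lists at 1 dat were those of alternative oxidase transcripts in the cyanide list. Of this list 6 of 11 members had risen at 1 dat, where 2.93% of all transcripts had, and the median log2 FC was 1.73. Alternative oxidase, a mitochondrial oxidase that cyanide does not block (TR11359|c0_g1_i1), had 33.1, 38.2 and 42.3 FPKM in treated buds, against 1.47, 0.696 and 0.635 FPKM in controls and 1.95, 1.47 and 3.24 FPKM at day 0 (treated against control log2 FC 4.78, SE 0.24, adjusted p = 6.55e-05). Cyanoalanine synthase, which joins hydrogen cyanide to cysteine (TR10732|c0_g1_i1), had 658, 595 and 659 FPKM in treated buds, against 65.7, 56.6 and 57.6 FPKM in controls (log2 FC 3.4, SE 0.07, adjusted p = 4.81e-06). Nitrilase NIT4A, which breaks down the cyanoalanine formed (TR24496|c0_g1_i1), averaged 227 ± 16.97 FPKM in treated buds and 78.1 ± 5.41 FPKM in controls (SD, n = 3 each; log2 FC 1.53, adjusted p = 6.55e-05 in limma). Treated and control libraries did not overlap for any of these 3 transcripts. The same held for 43 of the 81 members tested over the 4 lists at 1 dat. The share over all transcripts was not taken, so this count is given as a value only.

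At 3 dat 3 of 9 members of the cyanide list had risen, where 1.96% of all transcripts had. Alternative oxidase TR11359|c0_g1_i1 had 8.48, 29.6 and 6.74 FPKM in treated buds, against 0.525, 1.14 and 0.293 FPKM in controls (log2 FC 3.51, adjusted p = 0.0202, and 0.0595, 0.0724 and 0.0821 without treated tree 4, control tree 4 and control tree 6). Cyanoalanine synthase had 186, 261 and 121 FPKM in treated buds, against 49.1, 51.5 and 45.9 FPKM in controls (log2 FC 1.88, adjusted p = 0.0125, and 0.0531, 0.0528 and 0.0611 without the same libraries). As for the hemoglobin, tree 5 was the highest treated library at 3 dat for both enzymes. At 6 dat 1 of 8 members was called, and it had risen, where 0.913% of all transcripts had. This was cyanoalanine synthase, with 192, 152 and 192 FPKM in treated buds, against 69.1, 80.2 and 74.7 FPKM in controls (log2 FC 1.25, adjusted p = 0.00758). Alternative oxidase had 27.7, 7.25 and 7.55 FPKM in treated buds, against 5.31, 6.57 and 5.41 FPKM in controls (log2 FC 0.95, adjusted p = 0.370).

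The ascorbate and glutathione list holds ascorbate peroxidase, which removes hydrogen peroxide, and glutathione reductase. At 1 dat 3 of its 9 members tested had risen, where 2.93% of all transcripts had. Glutathione reductase TR40862|c1_g2_i3, which restores reduced glutathione, averaged 161 ± 4.46 FPKM in treated buds and 30.7 ± 3.68 FPKM in controls (SD, n = 3 each; log2 FC 2.38, adjusted p = 2.01e-05 in limma). Ascorbate peroxidase TR24669|c0_g1_i3 had 100.7, 90.4 and 108 FPKM in treated buds, against 28.1, 32.7 and 33.2 FPKM in controls (log2 FC 1.65, adjusted p = 0.000124). At 3 dat glutathione reductase had 90.5, 147 and 61.5 FPKM in treated buds, against 28.8, 34.6 and 29.3 FPKM in controls (log2 FC 1.59, adjusted p = 0.0271), a call that was lost without treated tree 4 or any of control trees 4, 5 and 6 (adjusted p = 0.0562 to 0.103). At 6 dat 0 of 6 members were called in limma, where 0.913% of all transcripts had risen and 0.495% had fallen. Of the 6, 3 were higher at an unadjusted p under 0.05 in limma.

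Over the 4 lists, 10 of 81 members had risen at 3 dat, where 1.96% of 63205 transcripts had, and 3 had fallen, where 1.05% had. At 6 dat 2 of 80 had risen, where 0.913% of 61781 transcripts had, and 2 had fallen, where 0.495% had. Their median log2 FC was 0.34 at 3 dat and -0.19 at 6 dat, beside -0.04 and -0.07 over all transcripts tested. The count of 13 at 3 dat was 5 without treated tree 4, 8 without treated tree 5, 2 without control tree 4 and 3 without control tree 6, and the count of 4 at 6 dat was 2 with the tree as a block. It was 2, 1 and 3 without treated trees 4, 5 and 6, and 1, 1 and 2 without control trees 4, 5 and 6. Rescaling the libraries by median ratios moved the median of all transcripts by 0.102, 0.0603 and 0.121 on the log2 scale at 1, 3, and 6 dat.

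Whether the response of a list member differed between days was tested over the 18 libraries of treated and control buds. From 1 to 6 dat the log2 FC fell by at least 1 in 15 of 83 members at an adjusted p of at most 0.05, where 1.04% of 62976 transcripts did, among them 3 of 8 of the nitrate list, 4 of 56 of the low oxygen list, 6 of 11 of the cyanide list and 2 of 8 of the ascorbate and glutathione list. In 0 of 83 members it grew by that rule, where 0.557% of all transcripts did (2 were higher at an unadjusted p under 0.05 in limma). For the nitrate reductase TR8065|c0_g2_i1 the difference between the days was -2.44 (SE 0.36, adjusted p = 0.00193) and for cyanoalanine synthase -2.15 (SE 0.26, adjusted p = 0.000647). The count was 8 without the control library of tree 5 at 1 dat and 9 without the treated library of tree 6 at 1 dat. From 1 to 3 dat 1 of 83 members, where 0.0524% of all transcripts did, had a smaller log2 FC by the same rule, and 0 of 83 had a larger one, where 0.0985% did (at an unadjusted p under 0.05 in limma, 21 were smaller and 1 was larger). For the hemoglobin, where these days chose the gene, the log2 FC at 1, 3, and 6 dat stands above without a test.

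Against day 0 the lists moved in both directions, in comparisons that share the day 0 libraries. In treated buds 20 of 83, 20 of 84 and 20 of 80 members had risen at 1, 3, and 6 dat, where 5.13, 7.99 and 11.8% of all transcripts had. There 3, 8 and 7 had fallen, where 2.42, 3.24 and 5.62% had. In control buds 1 of 74, 5 of 73 and 19 of 80 members had risen, where 3.63, 4.39 and 11.3% of all transcripts had, and 6, 7 and 11 had fallen, where 1.89, 1.71 and 4.13% had. The 28 calls of treated buds at 3 dat were 18 without treated tree 5 or day 0 tree 6, and the 27 at 6 dat were 16 without day 0 tree 4. The 7 calls of controls at 1 dat were 4 without control tree 5, and the 12 at 3 dat were 7 without control tree 5 or day 0 tree 4 and 6 without control tree 6. With the tree as a block, 18 of 23, 19 of 28 and 21 of 27 calls of treated buds and 5 of 7, 9 of 12 and 22 of 30 calls of controls remained.

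Like hemoglobin isoform 2, the nitrate reductase TR8065|c0_g2_i1 was above day 0 in treated buds on all days and in controls at 6 dat. Its log2 FC against day 0 was 2.92, 1.56 and 1.403 in treated buds at 1, 3, and 6 dat and 1.13 in controls at 6 dat (adjusted p = 0.0144). Alternative oxidase TR11359|c0_g1_i1 had a log2 FC against day 0 of 3.86, 2.25 and 2.203 in treated buds and 1.25 in controls at 6 dat (adjusted p = 0.0238). With the tree as a block the adjusted p of alternative oxidase was 0.0642 in controls at 6 dat and 0.0623 in treated buds at 3 dat. Nitrite reductase went another way, with a log2 FC against day 0 of 2.77 in treated buds at 1 dat and of -1.59 in controls at 6 dat (adjusted p = 0.00791).

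The transcripts whose pattern was most like that of the hemoglobin were sought among 44964 transcripts that averaged 1 FPKM or more, by Pearson’s r of log2(FPKM + 0.5) over the 21 libraries. The libraries fall into 7 groups that all transcripts share, so r is a description of likeness and is given without a p. For isoform 2, 241 transcripts had r above 0.9, and the 10 most alike had r of 0.968 to 0.980. They were 3 neomenthol dehydrogenase-like transcripts, 2 of them from 1 assembled gene (TR13670|c2_g2_i4 and TR13670|c2_g2_i11, r = 0.980 and 0.976; TR37884|c1_g1_i9, 0.968), a cinnamyl alcohol dehydrogenase, an enzyme type of lignin synthesis (TR32971|c0_g1_i6, 0.978), uroporphyrinogen-III C-methyltransferase (TR13513|c1_g1_i6, 0.978), cyanoalanine synthase (TR10732|c0_g1_i1, 0.977), nitrate reductase (TR8065|c0_g2_i1, 0.975), a cytochrome P450 named CYP81F2-like (TR38500|c5_g3_i1, 0.974), a methyltransferase (TR37819|c1_g5_i1, 0.971) and 2-alkenal reductase, which acts on reactive carbonyl compounds (TR26840|c9_g1_i1, 0.969). With r taken over the 7 group means, 5 of these 10 were again among the 10 most alike.

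For isoform 3, 58 transcripts had r above 0.9, and r between isoforms 2 and 3 was 0.947. The 10 most alike had r of 0.937 to 0.955. They included 2-hydroxyacyl-CoA lyase (TR19892|c0_g1_i2, 0.955), nitrate reductase (TR8065|c0_g2_i1, 0.954), proline-tRNA ligase (TR13554|c2_g1_i1, 0.948), alternative oxidase (TR11359|c0_g1_i1, 0.944), 12-oxophytodienoate reductase 2 (TR13558|c2_g1_i1, 0.943), a ubiquitin and WLM domain protein (TR13418|c1_g3_i3, 0.939), TR38014|c0_g1_i1 without a description (0.941) and the 3 neomenthol dehydrogenase-like transcripts named for isoform 2. The nitrate reductase TR8065|c0_g2_i1 was thus near the top for both isoforms. In contrast, nitrite reductase had r of 0.592 to isoform 2 and the alcohol dehydrogenase-like TR10654|c1_g1_i2 one of -0.579.

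**Figure D5:**
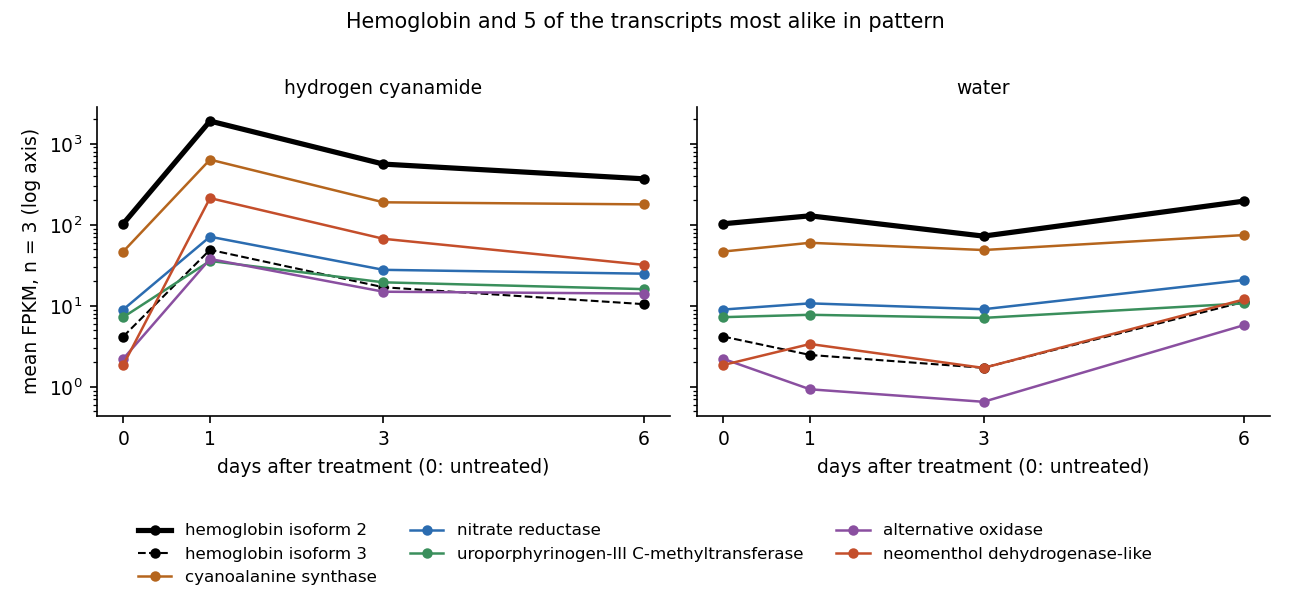
Mean level (FPKM, n = 3, log axis) of hemoglobin isoforms 2 and 3 and of 5 of the transcripts most alike in pattern over days after treatment, in hydrogen cyanamide-treated buds (left) and in water (right), both from the same untreated buds at 0. Isoform 2 is the highest line in both panels and peaks at 1908 FPKM at 1 dat in treated buds, where each of the other lines also has its highest value.

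The levels of these transcripts differed far more than their patterns. Uroporphyrinogen-III C-methyltransferase, which acts in the synthesis of siroheme, the cofactor of nitrite reductase, had 33.6, 33.3 and 40.6 FPKM in treated buds at 1 dat, against 9.43, 6.65 and 7.18 FPKM in controls and 7.08, 8.02 and 6.65 FPKM at day 0. The neomenthol dehydrogenase-like TR13670|c2_g2_i4 had 174, 191 and 276 FPKM in treated buds at 1 dat, against 4.46, 2.48 and 3.20 FPKM in controls, and the 12-oxophytodienoate reductase TR13558|c2_g1_i1, of an enzyme family that includes a step of jasmonate synthesis, had 126, 153 and 147 FPKM, against 2.24, 0.386 and 0.996 FPKM. Proline-tRNA ligase had only 2.34 times the level of controls at 1 dat. For all 16 transcripts most alike to isoform 2 or 3, treated and control libraries did not overlap at 1 or 3 dat, which follows from how they were chosen.

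At 6 dat the transcripts alike to isoform 2 and those alike to isoform 3, which share 4, overlapped in their treated to control ratio of means. It was 1.10 (TR37884|c1_g1_i9) to 3.95 (CYP81F2-like) over the 10 alike to isoform 2, beside 1.89 for isoform 2 itself. Over the 10 alike to isoform 3 it was 0.926 (proline-tRNA ligase) to 2.68 (TR13670|c2_g2_i4), beside 0.938 for isoform 3 itself. These ratios are part of the patterns by which the transcripts were picked and are given as values only.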

How the data were processed

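Sequenced were the messenger RNAs of flower buds of 3 trees at day 0 and, after hydrogen cyanamide or water, at 1, 3, and 6 dat, in 21 libraries. The authors used Trimmomatic 0.33 for trimming, Trinity for the assembly, STAR for mapping and eXpress 1.5.1 to estimate FPKM, and the deposited table of FPKM was used as it stands. Counts are not part of it, which leaves the depth of each value unknown and allows no counting intervals. Low values of transcripts with 1 isoform were read for steps, of which 53.7% lay within 0.1 of a whole step (20% if spread evenly), too few to recover reads. Names are the authors’ matches to proteins of other species, and no genome was used.

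Where the libraries of a comparison averaged 0.5 FPKM or more, a transcript was tested with limma 3.58.1 (R 4.3.3, trend on the mean) on log2(FPKM + 0.5), with Benjamini-Hochberg adjustment over all transcripts tested, after a check on simulated data. The study tested with another tool and at 1 dat used 2 replicates that its text does not name, whereas all 3 trees were used here. Isoform balance is described without the permutation test planned for it, since isoform 3 served to choose the gene. Other tools were scipy 1.17.1, numpy 2.4.6, pandas 2.3.3, matplotlib 3.10.9 and Python 3.11.15. The p-values measure the spread between 3 libraries per group, each from the buds of 1 branch of a different tree of 1 orchard. Spread between branches and between trees cannot be told apart in them.

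The members and lists were chosen with earlier results of these data known. Named were all isoforms of the hemoglobin gene, the isoform with the highest mean of each gene in the lists, up to 3 called transcripts with the largest absolute log2 FC in each list and day, and the 10 transcripts most alike to isoforms 2 and 3, of which the text gives a part. Members were described by counts beside those of all transcripts. Per the labels, each treatment used branches of the trees numbered 4, 5 and 6, and library titles end in these numbers, so the tree was tried as a replicate block. The correlation of deviations from group means was -0.0147 to 0.0587 between treated and control libraries of 1 tree and day and -0.12 to 0.126 between trees. Also tried were pseudocounts of 0.1 and 1 FPKM, no filter or a minimum of 1 FPKM, no fold threshold, rescaling by median ratios, isoforms summed, all 21 libraries in 1 fit, trees 5 and 6 alone at 1 dat, r over group means and leaving out each library. For the lists, those of day 0 comparisons and of differences between days were chosen after seeing the data.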

Additional observations from a re-analysis of the deposited data

Results flagged for a closer look

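In 12 of 32 named transcripts of the lists the treated to control difference itself differed between 1 and 6 dat. This is by the limma test of that difference over 18 libraries, and all were smaller at 6 dat on the log2 scale. By the same rule it was smaller in 1.04% and larger in 0.557% of all transcripts tested. Some of the 12 were named for a large log2 FC at 1 dat, from libraries that the test uses again. A smaller difference at 6 dat thus follows in part from how they were picked. In the nitrate list the change was -1.91 for TR8065|c0_g1_i1, -5.06 for TR8065|c0_g1_i2 and -2.44 for TR8065|c0_g2_i1, all nitrate reductase. The level of TR8065|c0_g1_i2 was 7.40 FPKM in 1 of 3 treated libraries at 6 dat and close to 0 in the others. In the low oxygen list it was -1.60 for 6-phosphofructokinase TR14234|c0_g1_i1, -1.11 for 6-phosphofructokinase TR32350|c1_g1_i2 and -1.38 for pyruvate kinase TR4778|c0_g1_i3. The last was higher in treated buds at 1 dat (76.9, 78.7 and 93.3 FPKM, against 44.3, 41.9 and 50.7 FPKM in controls) and had 236, 178 and 155 FPKM in treated buds at 6 dat, against 295, 280 and 235 FPKM in controls. In the cyanide list it was -3.83 for alternative oxidase TR11359|c0_g1_i1, -3.93 for alternative oxidase TR11359|c1_g2_i4, -2.15 for cyanoalanine synthase TR10732|c0_g1_i1 and -1.10 for nitrilase TR24496|c0_g1_i1. For glutathione reductase TR40862|c1_g2_i3 it was -1.54 and for ascorbate peroxidase TR24669|c0_g1_i3 -1.15. Without single libraries 8 of the 12 held under all 12 exclusions. The others held in part, TR8065|c0_g1_i2 in 2 of 12 (adjusted p up to 0.108), TR14234|c0_g1_i1 in 3 of 12 (up to 0.113), TR40862|c1_g2_i3 in 6 of 12 (up to 0.0621) and TR32350|c1_g1_i2 in 7 of 12 (up to 0.0587, and once with a log2 change of -0.99).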

How the results depend on the processing

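With trees 5 and 6 alone at 1 dat the treated against control log2 difference was 4.34 for hemoglobin isoform 2, 4.33 for isoform 3 and 4.35 for their sum, and that of controls against day 0 was -0.26 for isoform 2 and -0.28 for the sum. Rescaled by median ratios, controls at 3 dat against day 0 were at -0.75 for isoform 2 and -0.78 for the sum. Without single libraries the treated against control difference ran over 3.74 to 4.30, 2.49 to 3.12 and 0.75 to 1.02 for isoform 2 at 1, 3, and 6 dat, and over 3.74 to 4.30, 2.496 to 3.12 and 0.70 to 0.99 for the sum. The difference in isoform balance was -0.44 with a pseudocount of 1 FPKM and -0.14 with 0.1 FPKM. Of the 10 transcripts most alike, 5 were shared with r over group means for each isoform.

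Of the list members at 1 dat, 3 were called lower without a fold threshold and 1 with trees 5 and 6 alone, and 13 were called, all 13 higher, with isoforms summed per gene, where fewer features were tested. Without single libraries 17 to 22 were called, 16 to 22 higher and 0 to 1 lower. At 3 dat 2 were called without a filter (2 higher, 0 lower) and 7 with isoforms summed (6 higher, 1 lower), and without single libraries 2 to 12 (2 to 9 higher, 0 to 3 lower). At 6 dat 2 were called with the replicate block (1 higher, 1 lower), 10 with all 21 libraries in 1 fit (4 higher, 6 lower), 2 without a filter (1 higher, 1 lower) and 1 was called lower with isoforms summed, and without single libraries 1 to 3 (1 to 2 higher, 0 to 1 lower). Against day 0, without single libraries, the calls of treated buds were 18 to 22 at 3 dat and 16 to 25 at 6 dat, and those of controls 4 to 7 at 1 dat and 6 to 13 at 3 dat, and the differences between 1 and 6 dat were 8 to 18. The replicate block moved no other count by over 1.5 times. The shares of all transcripts called in these settings were not taken, so the counts show only how the calls moved. The cause of these changes was not tested. No called result changed sign. Of 12 called transcripts followed singly at 3 dat, 11 were lost without at least 1 of the 6 libraries, and the missing counts limit what can be said of transcripts near 0.5 FPKM.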
